A study of Mus musculus with 14 samples.

Results

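The genes described here are 10 members of the vascular endothelial growth factor (VEGF) and angiopoietin-Tie signalling systems, measured in whole mouse lung. They were chosen by symbol: Tek, Tie1, Angpt1, Angpt2, Vegfa, Vegfc, Kdr, Flt1, Flt4 and Pgf. The platform annotation mapped 19 probe sets to these symbols alone, and each gene is represented by whichever of its probe sets had the highest mean over the 14 arrays. All 10 passed the filter on low values, out of 18194 genes with a probe set and 11360 tested.

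VEGF ligands bind receptor tyrosine kinases on endothelial cells. Vegfa acts mainly through Kdr (VEGF receptor 2), Flt1 (VEGF receptor 1) binds Vegfa and the placental growth factor Pgf, and Vegfc acts through Flt4 (VEGF receptor 3), which is known for its part in lymphatic vessels. Angpt1 activates Tek (the Tie2 receptor) and stabilises vessels, Angpt2 can oppose it, and Tie1 is a related receptor that pairs with Tek. In the lung both systems are known for their control of endothelial survival and of vessel leak, and alveolar epithelium is a known source of Vegfa.

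There were 4 groups of arrays. Control held 4 arrays of mice that received PBS, VALI held 4 of mice on the ventilator for 4 hours, PBEF+/- held 3 of mice labelled as not ventilated, and VILI PBEF+/- held 3 of mice also on the ventilator for 4 hours. VALI and VILI are used in this field for ventilator-associated and ventilator-induced lung injury, and PBEF, the pre-B-cell colony-enhancing factor, is the product of Nampt. The sample labels give 40 ml/kg as the tidal volume of the ventilated groups, whereas the series text gives 30 ml/kg and names recombinant human PBEF placed in the trachea. The labels do not settle if PBEF+/- means a genotype or that protein, and neither strain nor separate animals per array were stated in them. Mice were 18 to 22 weeks old in every group except VILI PBEF+/-, in which they were 8 to 12 weeks old, so age and group cannot be told apart in comparisons that use VILI PBEF+/-. All p-values measure the spread between these arrays, which may be technical.

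Array medians lay between 4.60 and 4.75 on the log2 scale. A pair of arrays went against their labels on the inflammatory cytokine gene Il6. Its log2 level was 2.78 in VALI replicate 4, against 9.60 to 9.85 in the other VALI arrays, and 10.87 in PBEF+/- replicate 3, against 2.10 and 2.56 in the others of that group. Nampt was lowest in VALI replicate 4 (9.25) and highest in PBEF+/- replicate 3 (10.71) within their groups. It also differed within VILI PBEF+/-, where replicate 3, which was kept, had 9.28 against 10.79 and 10.62. Over the 10 genes, VALI replicate 4 was nearer to the Control mean than to the other VALI arrays for 6, and PBEF+/- replicate 3 was nearer to the VILI PBEF+/- mean than to its own group for 8. The same shares over all genes tested were not computed. Each result is given for all 14 arrays as labelled and for the arrays without VALI replicate 4 and PBEF+/- replicate 3, called the reduced set. These arrays were singled out by their own values, so p-values in the reduced set depend on that choice. Levels of Xist and Eif2s3y showed a male pattern in 2 Control arrays, 1 VALI array (replicate 4) and 1 PBEF+/- array, and a female pattern in the remaining arrays. In the reduced set every ventilated array therefore had a female pattern. Control replicates 1 and 4 and PBEF+/- replicate 2, all unventilated, had a male pattern there. Sex pattern and ventilation are thus partly confounded in the reduced set.

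Ventilated lungs had lower levels of Tek in the arrays as labelled, and in the reduced set also of Kdr, Angpt2, Angpt1 and Vegfa, while Pgf and Flt4 were higher there. The mean ventilation difference is the average of VALI minus Control and VILI PBEF+/- minus PBEF+/-, as a log2 difference from 1 limma model of the 4 groups, and a gene was called at a Benjamini-Hochberg adjusted p under 0.05 over the 11360 genes. As labelled, 1 of the 10 genes was called, Tek, which was lower by 1.56-fold (-0.64 ± 0.14, SE, adjusted p = 0.0327). Over all genes tested, 8.36% were called in this comparison (4.09% higher and 4.27% lower). In the reduced set 7 of the 10 were called, 2 higher and 5 lower, where 39.5% of all genes were called (14.9% higher and 24.6% lower). The median difference of the 10 genes was -0.39 as labelled and -0.49 in the reduced set, against -0.05 and -0.07 over all genes tested. In whole lung, fewer cells of a type and less RNA per cell cannot be told apart, and this holds for every difference given here.

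The Tek call as labelled did not hold in many settings. Its adjusted p was 0.0565 with no filter on low values, 0.0625 with the sex pattern as a covariate and 0.054 relative to the endothelial markers. It lay between 0.0538 and 0.094 when any 1 of 10 arrays was left out (Control replicate 2, 3 or 4, VALI replicate 1, 2 or 3, PBEF+/- replicate 1 or 2, or VILI PBEF+/- replicate 1 or 2), with the difference between -0.65 and -0.57.

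**Figure D1:**
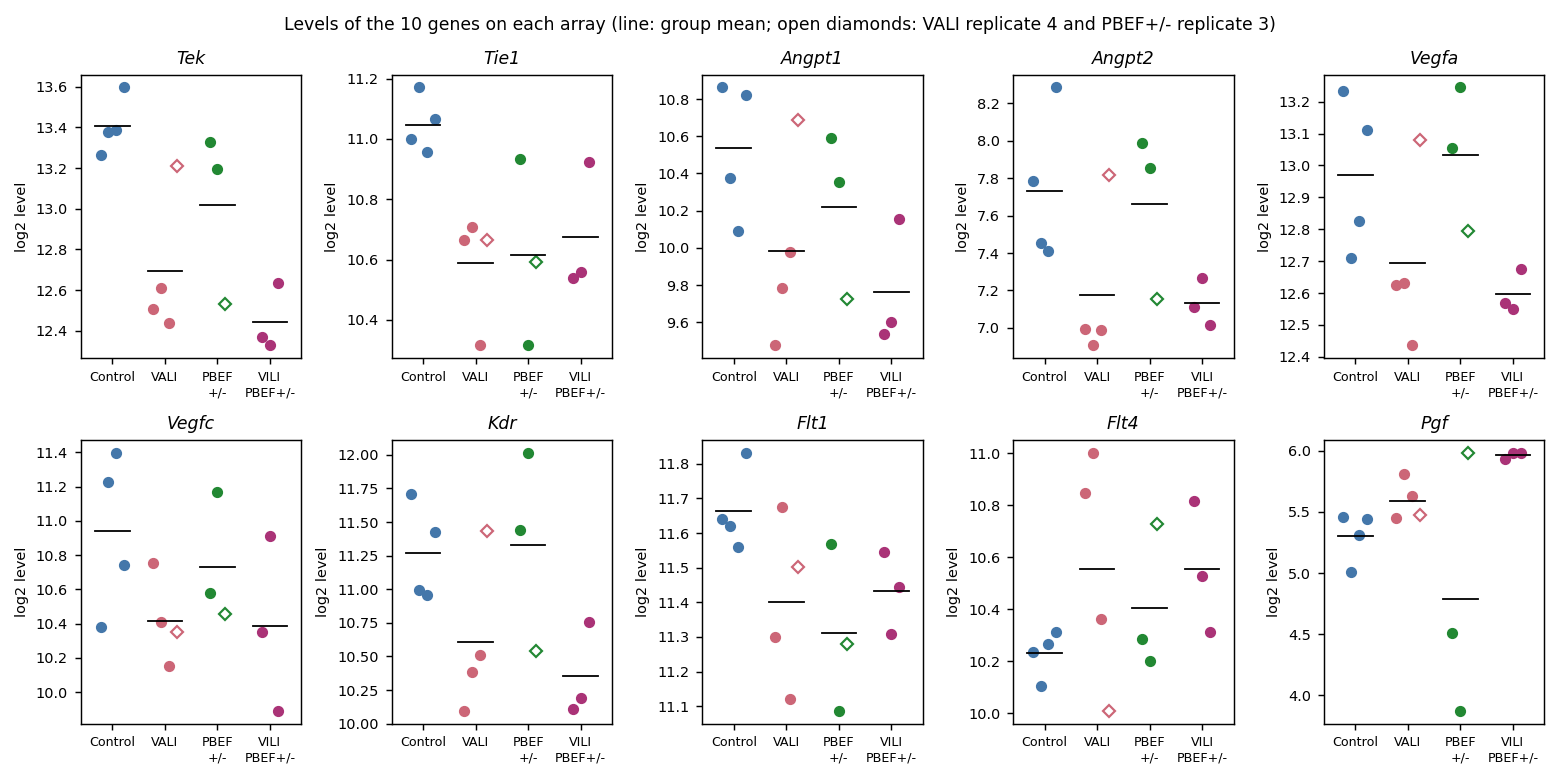
Log2 level (vertical axis, its range differing between panels) of each of the 10 genes on each of the 14 arrays, by group, with the group mean as a line and the 2 arrays that went against their labels as open diamonds. For Tek, the 3 filled VALI points lie between 12.44 and 12.61 and all 4 Control points between 13.26 and 13.60.

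**Figure D2:**
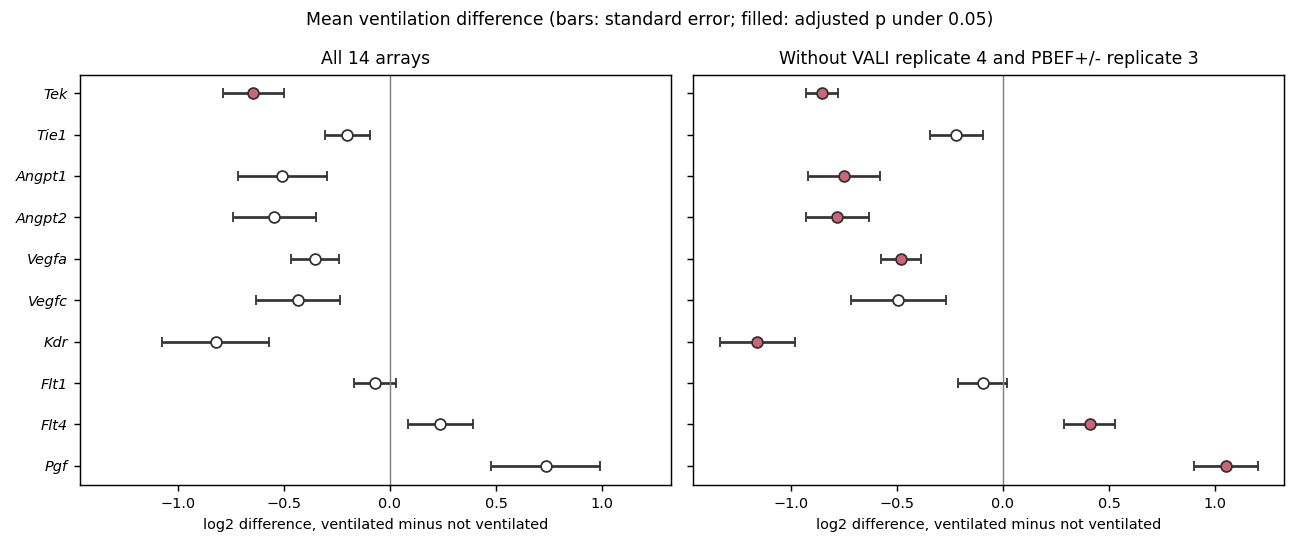
Mean ventilation difference (log2, ventilated minus not ventilated) of each gene with its standard error, for all 14 arrays (left) and the reduced set (right), filled where the adjusted p was under 0.05. Tek is filled in both panels, and Kdr, Angpt1, Angpt2, Vegfa, Flt4 and Pgf only on the right.

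Tek, Kdr and Vegfa were called lower in the reduced-set mean ventilation difference, as were Angpt1 and Angpt2, which had no promoter entry. Of these, only Tek was also called as labelled. The 250 bases before the transcription start of Tek, Kdr and Vegfa are shown beside those of Tie1, the partner of Tek, which was not called in that comparison. They come from RefSeq (GRCm38.p6), read 5′ to 3′ on the gene's strand, with capitals for the GC box GGGCGG on either strand.
Tek, chr4:94739039-94739288, plus strand: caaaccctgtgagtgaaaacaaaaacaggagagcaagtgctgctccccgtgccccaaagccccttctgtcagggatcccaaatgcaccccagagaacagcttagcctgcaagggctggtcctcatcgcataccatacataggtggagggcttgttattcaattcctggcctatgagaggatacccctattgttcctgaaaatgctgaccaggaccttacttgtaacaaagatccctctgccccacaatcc
Kdr, chr5:75978456-75978705, minus strand: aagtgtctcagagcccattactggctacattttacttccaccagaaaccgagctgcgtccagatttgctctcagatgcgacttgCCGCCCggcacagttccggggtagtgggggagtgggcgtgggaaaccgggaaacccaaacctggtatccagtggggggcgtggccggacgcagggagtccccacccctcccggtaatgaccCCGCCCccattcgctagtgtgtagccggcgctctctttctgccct
Vegfa, chr17:46032378-46032627, minus strand: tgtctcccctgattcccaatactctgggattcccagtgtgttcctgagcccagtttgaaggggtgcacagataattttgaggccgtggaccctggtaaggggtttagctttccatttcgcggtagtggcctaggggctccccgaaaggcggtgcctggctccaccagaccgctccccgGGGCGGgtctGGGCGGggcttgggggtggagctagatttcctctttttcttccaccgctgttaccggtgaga
Tie1, chr4:118489850-118490099, minus strand: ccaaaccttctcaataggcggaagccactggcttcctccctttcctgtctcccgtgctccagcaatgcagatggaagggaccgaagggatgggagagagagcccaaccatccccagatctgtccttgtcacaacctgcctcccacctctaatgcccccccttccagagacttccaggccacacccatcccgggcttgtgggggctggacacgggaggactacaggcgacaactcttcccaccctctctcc

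The promoter table matched 8 of the 10 genes, with 10 transcription starts. Angpt1 and Angpt2 had no entry. A GC box lay in 7 of the 10 promoters, against 32.7% of 32851 mouse promoters of that length. The printed windows of Kdr and Vegfa held 2 each, and those of Tek and Tie1 held none. The ETS core AGGAAG or CGGAAG, on either strand, was found for Tie1 and Flt1 alone (2 of 10, against 39.2% of all promoters). The hypoxia response core ACGTG was in 1 of 10, the other start of Vegfa (16.6% of all), the GATA sequence AGATAA in 1 of 10, the printed Vegfa window (9.99% of all), and the forkhead sequence GTAAACA in 0 of 10 (3.17% of all). The GC content of the printed windows was 51.2% for Tek, 61.6% for Kdr, 59.2% for Vegfa and 60.4% for Tie1. These matches describe the windows only.

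Tek, the receptor of the angiopoietins, had log2 levels of 13.26, 13.38, 13.38 and 13.60 in Control, 12.51, 12.61, 12.44 and 13.21 in VALI, 13.33, 13.20 and 12.53 in PBEF+/-, and 12.37, 12.33 and 12.63 in VILI PBEF+/-. VALI did not overlap Control, as held in that direction for 5.98% of all genes, and within VALI the highest array was replicate 4. PBEF+/- replicate 3 lay among the ventilated arrays, so the PBEF+/- and VILI PBEF+/- groups overlapped as labelled. As labelled, VALI minus Control was -0.71 ± 0.19 (adjusted p = 0.119) and VILI PBEF+/- minus PBEF+/- was -0.57 ± 0.22 (adjusted p = 0.188), neither called. Tek fell in both in the reduced set, by 0.89 ± 0.10 (adjusted p = 2.5e-04) and by 0.82 ± 0.12 (adjusted p = 8.6e-04), and the mean ventilation difference was -0.85 ± 0.08 (adjusted p = 1.7e-05). That call held in all 25 alternatives of the reduced set, with differences between -0.90 and -0.63.

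Tie1 was 10.999, 11.17, 10.96 and 11.07 in Control, 10.67, 10.71, 10.31 and 10.67 in VALI, 10.93, 10.32 and 10.59 in PBEF+/-, and 10.54, 10.56 and 10.92 in VILI PBEF+/-. Control was above every other array. Its groups did not overlap in VALI against Control as labelled, as for Tek, nor in PBEF+/- against Control, where 4.45% were. No adjusted p passed for Tie1 in the main model of either set, with VALI minus Control at -0.46 ± 0.14 (adjusted p = 0.156) as labelled and -0.49 ± 0.16 (adjusted p = 0.0572) in the reduced set. The latter was called in 6 of 26 alternatives, namely array weights (-0.43, adjusted p = 0.00443), the sex pattern as a covariate (-0.60, adjusted p = 0.0417), a fit of only the groups compared (adjusted p = 0.0212) and the sets without PBEF+/- replicate 1 (0.0217), PBEF+/- replicate 2 (0.0215) or VILI PBEF+/- replicate 3 (0.0455). With array weights, which give less weight to arrays far from the model, Tie1 was also called as labelled in VALI minus Control (-0.44, adjusted p = 0.00302) and in the mean ventilation difference (-0.34, adjusted p = 0.00602). Without PBEF+/- replicate 2 the mean ventilation difference was called in the reduced set (-0.37, adjusted p = 0.0268). In the PBEF+/- groups the difference with ventilation was 0.06 ± 0.16 (adjusted p = 0.841) as labelled.

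Both angiopoietin genes had lower mean levels in the ventilated groups. Angpt1 was 10.86, 10.37, 10.09 and 10.82 in Control, 9.47, 9.78, 9.98 and 10.69 in VALI, 10.59, 10.35 and 9.73 in PBEF+/-, and 9.54, 9.60 and 10.16 in VILI PBEF+/-. Its mean ventilation difference was -0.51 ± 0.21 (adjusted p = 0.12) as labelled and -0.75 ± 0.17 (adjusted p = 0.005) in the reduced set. Only 1 ventilated array of the reduced set, VILI PBEF+/- replicate 3, lay within the unventilated range. The second Angpt1 probe set moved the same way and was called as labelled (-0.93 ± 0.24, adjusted p = 0.0395).

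Angpt2 was 7.79, 7.45, 7.41 and 8.29 in Control, 6.99, 6.91, 6.99 and 7.82 in VALI, 7.99, 7.85 and 7.15 in PBEF+/-, and 7.11, 7.26 and 7.02 in VILI PBEF+/-. The 6 ventilated arrays of the reduced set lay between 6.91 and 7.26, and its unventilated arrays lay at 7.41 or above. Among all genes tested, 12.6% had every ventilated array of that set below every unventilated one, and 7.79% had every one above. The mean ventilation difference was -0.55 ± 0.20 (adjusted p = 0.084) as labelled and -0.78 ± 0.15 (adjusted p = 0.00216) in the reduced set. Within Control, Angpt1 and Angpt2 were both higher in replicates 1 and 4, the arrays with a male pattern. The second Angpt2 probe set was above the array median on 0 arrays and was not used. Angpt2 relative to Angpt1, as a log2 ratio within each array, differed by -0.03 between the 7 ventilated and 7 unventilated arrays (exact permutation test, two-sided, p = 0.816).

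Tek relative to Tie1, as a log2 ratio within each array, was 1.96 ± 0.29 (SD, n = 7) in ventilated and 2.38 ± 0.29 (SD, n = 7) in unventilated arrays. The difference of -0.42 had p = 0.0221 in a two-sided exact permutation test, and 0.0498 after Benjamini-Hochberg adjustment over the 6 ratios computed. The reduced set gave -0.59, with the smallest p that 6 against 6 arrays allow in this exact test, 0.00216 (adjusted 0.00432).

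Vegfa, the main ligand of Kdr and Flt1, was 13.23, 12.71, 12.83 and 13.11 in Control, 12.62, 12.63, 12.44 and 13.08 in VALI, 13.06, 13.24 and 12.79 in PBEF+/-, and 12.57, 12.55 and 12.67 in VILI PBEF+/-. VILI PBEF+/- lay below every PBEF+/- array, as 10.8% of all genes did. The mean ventilation difference was -0.35 ± 0.11 (adjusted p = 0.0652) as labelled and -0.48 ± 0.09 (adjusted p = 0.00243) in the reduced set. The reduced-set call was lost with the second Vegfa probe set (-0.22 ± 0.10, adjusted p = 0.104) and relative to the endothelial markers (-0.26, adjusted p = 0.0894). Vegfa, too, had its higher Control values in replicates 1 and 4.

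Vegfc, the ligand of Flt4, was 10.38, 11.23, 11.40 and 10.75 in Control, 10.75, 10.41, 10.16 and 10.35 in VALI, 10.58, 11.17 and 10.45 in PBEF+/-, and 10.35, 10.91 and 9.89 in VILI PBEF+/-. All groups overlapped. Its mean ventilation difference was -0.43 ± 0.20 (adjusted p = 0.151) as labelled and -0.49 ± 0.22 (adjusted p = 0.101) in the reduced set. The 3 Vegfc probe sets followed each other across the arrays (Pearson r between 0.92 and 0.95, n = 14). The third was called in the reduced set (-0.74 ± 0.27, adjusted p = 0.0482), as was the first when Control replicate 1 (-0.59, adjusted p = 0.0471) or VILI PBEF+/- replicate 2 (-0.63, adjusted p = 0.0465) was left out.

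Pgf, the ligand that binds Flt1, was 5.46, 5.004, 5.31 and 5.44 in Control, 5.45, 5.81, 5.63 and 5.48 in VALI, 4.51, 3.87 and 5.98 in PBEF+/-, and 5.93, 5.98 and 5.98 in VILI PBEF+/-. The 3 VILI PBEF+/- arrays lay above every VALI array, as 4.67% of all genes did in that direction. The 2 lowest of the 14 values were PBEF+/- replicates 1 and 2, both below the array medians, whereas PBEF+/- replicate 3 was level with VILI PBEF+/-. As labelled, the mean ventilation difference was 0.73 ± 0.26 (adjusted p = 0.0785). Pgf rose by 1.77 ± 0.23 from PBEF+/- to VILI PBEF+/- in the reduced set (adjusted p = 4.2e-04, n = 2 and 3). The size of that difference rests on PBEF+/- values below the array medians, the level that the filter on low values uses. VALI minus Control was 0.33 ± 0.19 (adjusted p = 0.257). The reduced-set mean ventilation difference of 1.05 ± 0.15 (adjusted p = 3.4e-04) was called in all 25 alternatives.

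Kdr, the main signalling receptor for Vegfa, had the lowest mean ventilation difference of the 10 genes. Its level was 11.71, 10.99, 10.96 and 11.42 in Control, 10.10, 10.39, 10.51 and 11.43 in VALI, 11.44, 12.02 and 10.54 in PBEF+/-, and 10.11, 10.19 and 10.76 in VILI PBEF+/-. The ventilated and unventilated arrays overlapped as labelled and, as for Angpt2, did not in the reduced set. The mean ventilation difference was -0.82 ± 0.25 (adjusted p = 0.0594) as labelled and -1.16 ± 0.18 (2.23-fold lower, adjusted p = 5.2e-04) in the reduced set. It was called as labelled when either VALI replicate 4 (-0.96, adjusted p = 0.0141) or PBEF+/- replicate 3 (-1.02, adjusted p = 0.00806) alone was left out. The reduced-set call held in all 25 alternatives. Kdr also had its 2 higher Control values in replicates 1 and 4, which had a male pattern.

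Flt4, the receptor of Vegfc, was 10.24, 10.10, 10.27 and 10.31 in Control, 10.85, 11.002, 10.36 and 10.01 in VALI, 10.28, 10.20 and 10.73 in PBEF+/-, and 10.82, 10.53 and 10.31 in VILI PBEF+/-. VALI held both the highest and the lowest of these values. The mean ventilation difference was 0.24 ± 0.15 (adjusted p = 0.292) as labelled. It was 0.41 ± 0.12 (adjusted p = 0.0204) in the reduced set. That call was lost with the sex pattern as a covariate (adjusted p = 0.0596) and without VALI replicate 2 (0.34, adjusted p = 0.0505), PBEF+/- replicate 2 (0.39, adjusted p = 0.0576) or VILI PBEF+/- replicate 1 (0.34, adjusted p = 0.0516). The second Flt4 probe set gave 0.94 ± 0.22 (adjusted p = 0.0056).

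The Flt1 probe sets differed from each other. Probe set 1 gave no called ventilation difference, and probe sets 2, 3 and 4 were called higher in the reduced set. Its 4 probe sets are numbered by their mean level. On probe set 1, with the highest mean, it was 11.64, 11.62, 11.56 and 11.83 in Control, 11.30, 11.68, 11.12 and 11.50 in VALI, 11.57, 11.09 and 11.28 in PBEF+/-, and 11.55, 11.31 and 11.44 in VILI PBEF+/-. These values overlapped between ventilated and unventilated arrays, and the mean ventilation difference was -0.07 ± 0.10 (adjusted p = 0.636) as labelled and -0.10 ± 0.11 (adjusted p = 0.527) in the reduced set. Probe set 4 gave 7.61, 7.42, 7.30 and 7.75 in Control, 8.87, 8.95, 7.96 and 7.04 in VALI, 7.25, 6.77 and 8.87 in PBEF+/-, and 9.31, 9.02 and 8.15 in VILI PBEF+/-. In the reduced set every ventilated array was above every unventilated one there, as held for 7.79% of all genes.

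Flt1 probe sets 2, 3 and 4 followed each other across the 14 arrays, with Pearson r between 0.94 and 0.98, and probe set 1 followed none of them (r between -0.05 and 0.03). Their mean ventilation differences in the reduced set were 0.84 ± 0.22 (adjusted p = 0.011), 1.22 ± 0.20 (adjusted p = 8.2e-04) and 1.45 ± 0.23 (adjusted p = 7.3e-04), and as labelled 0.56 ± 0.26, 0.84 ± 0.29 and 0.94 ± 0.36, none of them called. As a log2 ratio within each array, probe set 3 relative to probe set 1 was higher by 0.89 in the 7 ventilated arrays as labelled (two-sided exact permutation test, p = 0.0169, adjusted 0.0498), and probe set 4 by 1.004 (p = 0.0332, adjusted 0.0498). For probe set 2 the ratio was higher by 0.64 (exact permutation p = 0.049, adjusted 0.0588). Within pairs of groups as labelled, none of these ratios passed the same test. The adjusted p was 0.275 for each in VALI minus Control and 0.24 for each in VILI PBEF+/- minus PBEF+/-. Flt1 is known to make a full-length receptor and a secreted form from 1 gene. Which transcript each probe set reads was not determined here, so no level of a form can be given.

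**Figure D3:**
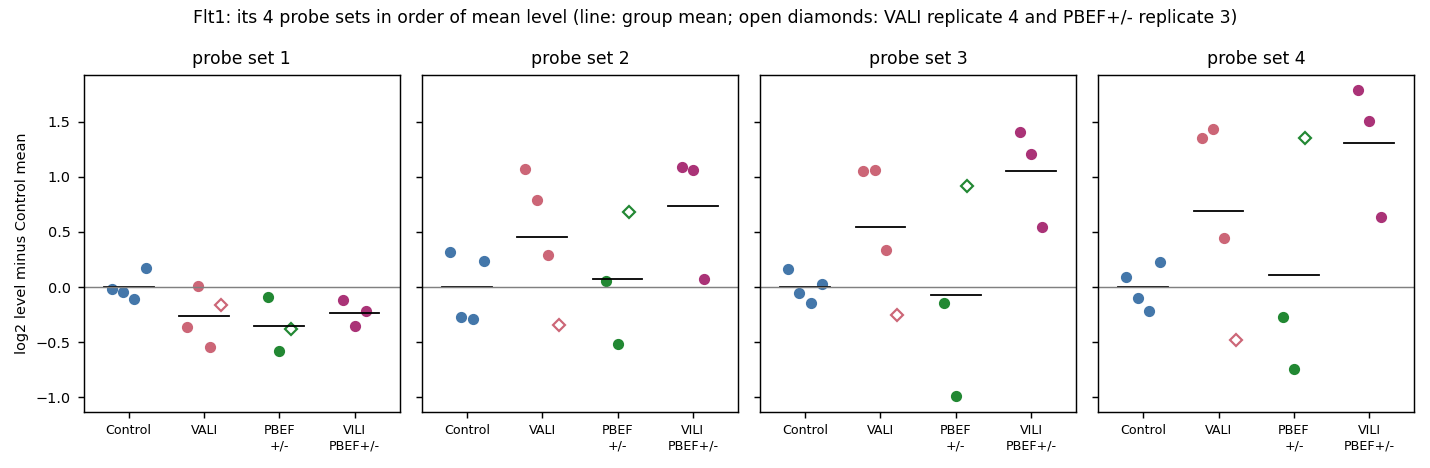
Log2 level minus the Control mean (vertical axis) of the 4 Flt1 probe sets on the 14 arrays, by group, with group means as lines and the 2 arrays that went against their labels as open diamonds. On probe set 1 the ventilated and unventilated points overlap, while on probe set 4 the filled ventilated points lie above the filled unventilated points.

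Kdr relative to Flt1 probe set 1 was lower by 0.70 as a log2 ratio in the 7 ventilated arrays (-0.92 ± 0.48 against -0.22 ± 0.58, SD, two-sided exact permutation p = 0.0251, adjusted 0.0498). It was lower by 0.93 in the reduced set (exact permutation p = 0.00433, adjusted 0.0052). Within pairs of groups as labelled, the exact permutation test gave p = 0.229 (adjusted 0.275) for VALI minus Control and 0.2 (adjusted 0.24) for VILI PBEF+/- minus PBEF+/-. Ratios of Kdr to the other Flt1 probe sets were not computed.

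Taken by pair of groups, none of the 10 genes was called as labelled in VALI minus Control, where 0% of all genes were called, 18.3% had an unadjusted p under 0.05 and 3 of the 10 did. The reduced set had 5 that fell and 1 that rose (17% of all genes called, 6.53% higher and 10.5% lower). They were Tek, Kdr (-0.94 ± 0.22, adjusted p = 0.016), Angpt2 (-0.77 ± 0.19, adjusted p = 0.0193), Angpt1 (-0.79 ± 0.21, adjusted p = 0.0274), Vegfa (-0.41 ± 0.12, adjusted p = 0.0402) and, higher, Flt4 (0.51 ± 0.16, adjusted p = 0.0451). Leaving out 1 more array moved this count between 1 and 7, with 1 called without VALI replicate 1, 2 without VALI replicate 2 and 3 without Control replicate 1 or 4. Tek was called in each of these settings. The Vegfa call was lost in 16 of 26 alternatives and the Flt4 call in 12 of 26, against 7 of 26 for Angpt1, 5 of 25 for Angpt2 and 3 of 26 for Kdr. Vegfa had -0.07 (adjusted p = 0.772) relative to the endothelial markers, -0.20 (adjusted p = 0.0582) with array weights and -0.24 (adjusted p = 0.101) with the sex pattern as a covariate.

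From PBEF+/- to VILI PBEF+/-, 0 of the 10 genes were called as labelled (0% of all genes called, 20.7% with an unadjusted p under 0.05, 4 of the 10). The reduced set, with n = 2 and 3, called 4 lower and 1 higher (26.4% of all genes, 15.3% lower and 11.2% higher). These were Tek, Kdr (-1.38 ± 0.27, adjusted p = 0.00437), Vegfa (-0.55 ± 0.14, adjusted p = 0.0172), Angpt2 (-0.79 ± 0.23, adjusted p = 0.0281) and, higher, Pgf. The Vegfa call was lost in 7 of 26 alternatives, among them its second probe set, which gave -0.10 (adjusted p = 0.672). Angpt1 was -0.71 ± 0.26 (adjusted p = 0.0631). Without VILI PBEF+/- replicate 1, 3 of the 10 were called, and the share of all genes called in that setting is not given here. Leaving out a PBEF+/- array leaves 1 array in that group, which is assumed to vary like those of the other groups.

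The PBEF+/- label without ventilation made no call among the 10 genes in either set (0% of all genes called in both). In limma, an unadjusted p under 0.05 was met by 2 of the 10 as labelled, against 8.26% of all genes, and by 2 in the reduced set, against 11.1%. Pgf in the reduced set was -1.11 ± 0.22 against Control (adjusted p = 0.45), with both PBEF+/- arrays below every Control array, as for 8.54% of all genes. With PBEF+/- replicate 1 left out, which leaves a single PBEF+/- array, the difference was -1.43 for Pgf and -0.73 for Tie1. VILI PBEF+/- against VALI gave 0 calls of the 10 in limma in both sets, where 0% of all genes were called as labelled and 0.114% in the reduced set, and 0 of the 10 had an unadjusted p under 0.05 in either set (10.5% and 7.55% of all genes). Differences between these ventilated groups in the reduced set ran from -0.18 ± 0.17 for Flt4 to 0.33 ± 0.20 for Pgf.

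The interaction asks whether the ventilation difference itself differed between the groups with and without the PBEF+/- label. It was called for 0 of the 10 genes in both sets (0% of all genes), with 1 of the 10 at an unadjusted p under 0.05 in limma in each, against 5.58% and 10.4% of all genes. For Pgf it was 0.89 ± 0.51 (adjusted p = 0.904) as labelled and 1.45 ± 0.30 (adjusted p = 0.289) in the reduced set. Without PBEF+/- replicate 1, which leaves a single PBEF+/- array, the interaction in the reduced set was 1.77 for Pgf and 0.84 for Tie1.

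Endothelial cells carry most of these receptors, and 18 endothelial markers were measured beside them, all above the filter. Their mean log2 level was 12.34 to 12.54 in Control, 11.99 to 12.24 in VALI, 12.16 to 12.30 in PBEF+/- and 12.08 to 12.18 in VILI PBEF+/-. Control was thus above every other array. Their log2 summed level was 17.02 to 17.19, 16.64 to 16.93, 16.83 to 16.98 and 16.72 to 16.79 in the same order. In the mean ventilation difference 3 of the 18 fell as labelled, and 7 fell and 2 rose in the reduced set, with a median of -0.23 and -0.26. The shares over all genes were 8.36% called as labelled and 39.5% in the reduced set (14.9% higher and 24.6% lower). They apply to every list count of this comparison given below.

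With each gene taken relative to the endothelial marker mean, an alternative chosen after seeing the data, the reduced-set mean ventilation difference called 6 of the 10 genes in place of 7, and Vegfa was lost. Tek then had -0.44 (adjusted p = 0.054) as labelled. Pgf was called as labelled on that scale (0.93, adjusted p = 0.0461), and the Tie1 difference was 0.00.

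Markers of some other cells moved between these groups too. The 8 neutrophil markers had a log2 summed level of 10.95 to 12.51 in Control, 11.22 to 15.66 in VALI, 11.28 to 15.44 in PBEF+/- and 15.25 to 15.39 in VILI PBEF+/-, and 5 of 8 rose in the mean ventilation difference as labelled (8 of 8 in the reduced set). The 8 alveolar type I markers had 16.76 to 17.03, 16.52 to 16.79, 16.53 to 16.88 and 16.51 to 16.60 in that order, with 1 lower as labelled and 5 lower in the reduced set. The 7 fibroblast markers had 15.85 to 15.99, 15.58 to 15.79, 15.69 to 15.88 and 15.50 to 15.63, with 1 and 2 lower. The 3 lymphatic endothelial markers tested, from cells known to carry Flt4, had a log2 summed level of 13.33 to 13.997 in Control, 12.88 to 14.70 in VALI, 13.05 to 14.45 in PBEF+/- and 14.03 to 14.60 in VILI PBEF+/-. The 12.88 was VALI replicate 4 and the 14.45 PBEF+/- replicate 3, and without them VALI began at 14.14 and PBEF+/- ended at 13.39. The mean log2 level of the 3 markers still overlapped between ventilated and unventilated arrays of the reduced set. It was 10.24 in Control replicate 4 and 9.99 in VILI PBEF+/- replicate 3. None of the 3 markers was called as labelled in the mean ventilation difference, and 1 was higher in the reduced set, Lyve1 (1.004 ± 0.16, adjusted p = 7.6e-04). Prox1, a defining lymphatic factor, did not pass the filter. The 6 alveolar type II markers tested had a log2 summed level of 16.72 to 17.07 in Control and 16.64 to 16.95 in VALI. It was 16.71 to 16.94 in PBEF+/- and 16.69 to 16.82 in VILI PBEF+/-, so all groups overlapped. The 9 pericyte and smooth muscle markers had 14.57 to 14.94 in Control and 14.12 to 14.91 in VALI. The 6 macrophage markers had 13.06 to 14.27 and 14.17 to 15.27.

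Muscle markers moved as well. The 4 skeletal muscle markers had a log2 summed level of 7.69 to 8.22 in Control, 9.19 to 16.42 in VALI, 6.68 to 9.74 in PBEF+/- and 9.14 to 12.16 in VILI PBEF+/-. The highest were VALI replicate 4 (16.42) and VALI replicate 1 (15.67), and replicate 1 is part of the reduced set. Of the 4, Acta1, skeletal muscle actin, was called higher in the mean ventilation difference as labelled (5.71 ± 1.18, adjusted p = 0.0302) and in the reduced set (5.91 ± 0.97, adjusted p = 8.5e-04). Without VALI replicate 1 the reduced set called 1 of the 10 genes in VALI minus Control. That count also fell without VALI replicate 2 (muscle level 9.72) or without Control replicate 1 or 4, as given above. The count over all genes fell as well, to 985 at the lowest with 1 more array left out, against 1933. The 7 heart markers had 14.93 to 15.27, 14.68 to 15.68, 14.78 to 15.67 and 14.68 to 15.12 in the same order of groups, with 0 called as labelled and 4 of 7 lower in the reduced set. The share of all genes called lower there was 24.6%. The part of all these cells in the differences of the 10 genes was not tested.

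Of 45 other genes of these pathways, in 4 lists, 41 were tested. Beside their counts stand the shares of all genes called in the mean ventilation difference, 8.36% as labelled and 39.5% in the reduced set. The list of other ligands, co-receptors and a phosphatase had 6 tested genes, with 0 called as labelled in the mean ventilation difference and 4 lower in the reduced set. These were the VEGF co-receptors Nrp1 (-0.53 ± 0.09, adjusted p = 0.00109) and Nrp2 (-0.54 ± 0.15, adjusted p = 0.0168), the ligand Vegfb (-0.63 ± 0.16, adjusted p = 0.00924), and Ptprb, the phosphatase that acts on Tek (-0.26 ± 0.08, adjusted p = 0.0211). The list's median was -0.29 as labelled and -0.43 in the reduced set.

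Among 16 signalling proteins that act below the receptors, 1 rose as labelled, the adaptor Shb (0.96 ± 0.25, adjusted p = 0.0395). The reduced set called 6 higher and 1 lower, where 39.5% of all genes were called (14.9% higher and 24.6% lower). Shb rose by 1.33 ± 0.12 (adjusted p = 1.8e-05) and the kinase Mapkapk2, which acts below p38, by 0.59 ± 0.09 (adjusted p = 5.7e-04), followed by Tnip2 (0.65 ± 0.14) and Rasip1 (0.72 ± 0.16). The endothelial nitric oxide synthase gene Nos3 is named beside these 4 as the 1 that fell, after its value was seen (-0.51 ± 0.18, adjusted p = 0.0391).

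Genes known to respond to VEGF or to mark tip cells of growing vessels numbered 7, of which 1 rose as labelled. It was Rcan1, an inhibitor of calcineurin (1.52 ± 0.38, adjusted p = 0.0379), which rose by 2.11 ± 0.16 in the reduced set (adjusted p = 4.9e-06). The Notch ligand Dll4 rose there too (0.38 ± 0.11, adjusted p = 0.0167), and Apln, the apelin gene, fell (-0.43 ± 0.15, adjusted p = 0.0385). The share of all genes called there was 39.5%. Egr3, an early transcription factor, was 1.44 ± 0.56 (adjusted p = 0.0604).

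The hypoxia pathway is a known regulator of Vegfa, and 12 of its genes were tested. As labelled the glucose transporter Slc2a1 rose (1.41 ± 0.29, adjusted p = 0.0307) and Epas1, which encodes HIF-2 alpha, fell by a small amount (-0.13 ± 0.03, adjusted p = 0.038). In the reduced set 5 rose and 2 fell, where 14.9% of all genes were called higher and 24.6% lower. Those that rose include Slc2a1 (1.84 ± 0.15), Hif1a, the inducible subunit of HIF-1 (0.48 ± 0.08, adjusted p = 8.9e-04), and Adm, which encodes adrenomedullin (2.90 ± 0.56, adjusted p = 0.00212). Vegfa itself was lower in the same arrays, as given above.

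**Figure D4:**
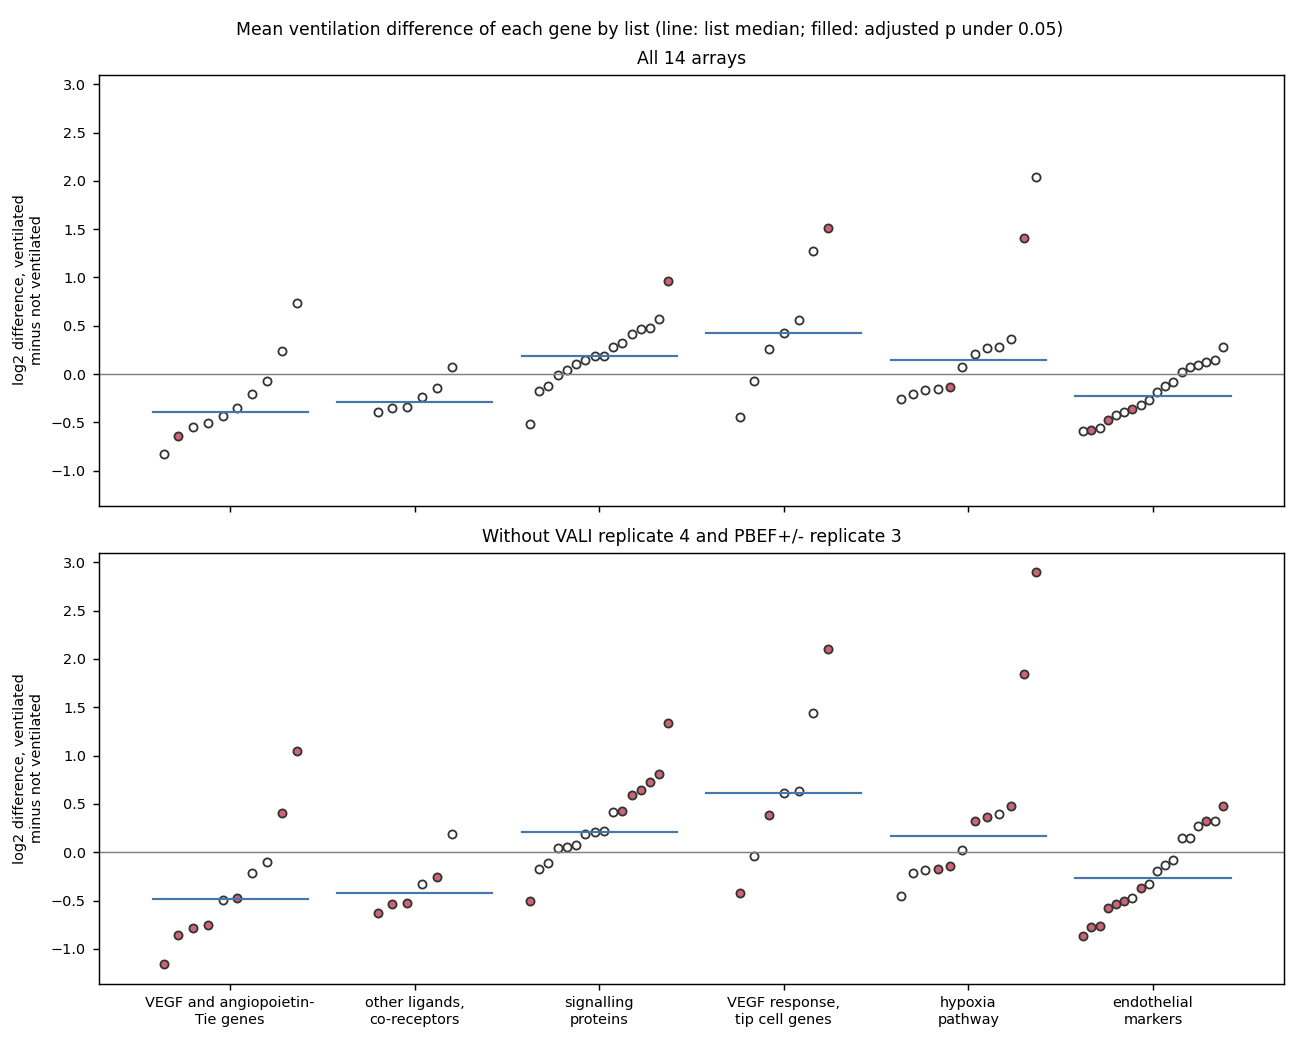
Mean ventilation difference (vertical axis, log2) of each tested gene of 6 lists, for all 14 arrays (top) and the reduced set (bottom), with list medians as lines and filled points at an adjusted p under 0.05. The 10 VEGF and angiopoietin-Tie genes and the co-receptor list have medians below 0 in both panels, and the signalling, VEGF response and hypoxia lists have medians above 0.

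The genes whose levels were most like those of a member, among all tested genes outside the 10, were ranked by Pearson r over the 14 arrays, which share their group structure and the 2 arrays that went against their labels. For Tek they were Rarb (r = 0.98, Spearman rho = 0.89), Tril (0.98, 0.93) and Pygb (0.98, 0.89). For Kdr they were Plscr4 (r = 0.97, rho = 0.93), Bmpr2 (0.97, 0.96) and Gm20559 (0.96, 0.95). For Vegfa they were Lrrn3 (r = 0.95, rho = 0.86), Gucy1b1 (0.95, 0.94) and Tmem8b (0.94, 0.97), and for Angpt2 they were Ano1 (r = 0.97, rho = 0.90), Ube2e3 (0.95, 0.78) and Ces1e (0.95, 0.83). After each value's group mean was taken away, r stayed between 0.90 and 0.97 for these 12 genes. These deviations still hold the 2 arrays that went against their labels, so they do not separate likeness from the ventilation difference. The value of r without those arrays was not computed. Among the members themselves, Kdr followed Vegfa (r = 0.93), Angpt1 (0.90), Angpt2 (0.84) and Tek (0.83), and ran opposite to Flt4 (-0.76) and Pgf (-0.72). Flt1 probe set 1 followed Kdr with r = 0.16, and Vegfc followed it with r = 0.22.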

How the data were processed

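Total RNA of whole mouse lung was measured on 14 Affymetrix arrays. The deposited values are log2 expression values per probe set, 1 table for all arrays, which the authors had normalized. MAS5 and GCRMA appear in the submitters' processing notes, with no version and no role for either. Of 45101 probe sets, 34958 carried 1 gene symbol in the platform annotation, 932 several and 9211 none, and 34754 matched by Entrez identifier with 0 symbols changed. No further scaling was applied. Genes were tested if their probe set lay above the median of the array on 3 or more of the 14 arrays.

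A linear model of the 4 groups was fitted to all arrays with limma 3.58.1 (R 4.3.3, empirical Bayes with a variance trend). Adjusted p-values of the main model are Benjamini-Hochberg values over 11360 genes, called under 0.05. Those of fits with another filter or with further probe sets are over the genes or probe sets in that fit, and those of ratios are over the 6 ratios. Values after ± are standard errors for differences and SD for group means. The fit was tested on simulated data. Each comparison was repeated without VALI replicate 4 and PBEF+/- replicate 3, with other filters, scalings, variance models, probe sets, covariates and a block, and with each array left out. Ratios within an array were tested by exact permutation, which for ventilated against unventilated arrays took no account of the PBEF+/- label or of age. The number of arrays limits the precision.

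The members, the lists and the 2 arrays were chosen with earlier results of these data known. The text names all 10 members, up to 4 genes of each pathway list by smallest p in VALI minus Control or in the mean ventilation difference, and the 3 genes most like 4 members. Nos3 is named outside that rule, after its value was seen. Eif2s3y stands in for Ddx3y, which no probe set with 1 symbol named. Markers of 12 cell types or sources were listed, in 135 entries with the pathway genes, of which 122 were tested. Promoters were read from RefSeq tables (GRCm38.p6). Figures were drawn with matplotlib 3.10.9.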

Additional observations from a re-analysis of the deposited data

Results flagged for a closer look

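Groups of 4 arrays were checked for 1 array far from the others, by the gap to its nearest neighbour as a share of the group's range, against Dixon's critical value for 4 samples. Of 20 such groups, 2 passed it, and chance flags about 1 in 20.

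Angpt2 in VALI had a share of 0.904. Replicate 4 lay at 7.82, and the other 3 arrays lay between 6.91 and 6.99. This array is 1 of the 2 that went against their labels on Il6.

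Tie1 in VALI had a share of 0.893. Replicate 3 lay at 10.31, and the other 3 arrays, replicate 4 among them, lay between 10.67 and 10.71.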

How the results depend on the processing

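Counts are of the 10 genes called. As labelled, array weights, which give less weight to arrays that fit the model poorly, raised the count from 0 to 8 in VALI minus Control, from 0 to 6 in VILI PBEF+/- minus PBEF+/- and from 1 to 9 in the mean ventilation difference, and leaving out the 2 arrays gave 6, 5 and 7. Over all genes tested the same weights called 41.3%, 29.6% and 50.6% as labelled. The mean ventilation difference as labelled also gave 0 with no filter or with the sex pattern as a covariate and 2 with the second probe set. In the reduced set, VALI minus Control gave 6, and 3 with the sex pattern, with the second probe set or relative to the endothelial markers. VILI PBEF+/- minus PBEF+/- gave 5 there, and 3 with array weights or relative to the endothelial markers, and VILI PBEF+/- minus VALI gave 0, and 1 with array weights. With each array left out in turn, counts as labelled ran from 0 to 1 in VALI minus Control, 0 to 3 in VILI PBEF+/- minus PBEF+/- and 0 to 6 in the mean ventilation difference (5 without VALI replicate 4, 6 without PBEF+/- replicate 3). In the reduced set they ran from 1 to 7, from 3 to 6 and from 6 to 8 in the same comparisons. In PBEF+/- minus Control and in the interaction the count moved only without PBEF+/- replicate 1, which leaves a single array in that group. In VALI minus Control and the mean ventilation difference of the reduced set, Flt1 was the gene whose sign changed between probe sets that passed the filter. Against -0.30 in the first, its probe sets 2, 3 and 4 gave 0.72, 0.81 and 1.07, of which probe set 2 was not called (limma, adjusted p = 0.103). Against -0.10 in the second, its probe sets 2, 3 and 4 gave 0.84, 1.22 and 1.45. Other comparisons had sign changes for other genes too. In PBEF+/- minus Control as labelled, the second probe set gave -0.28 against 0.17 for Flt4 and -0.14 against 0.06 for Vegfa, none called. Genes called over all 11360 ranged, over the alternatives, from 0 to 5751 in the mean ventilation difference as labelled (950 in the report) and from 3123 to 4832 in the reduced set (4485). They ranged from 0 to 4689 (0) and from 985 to 5037 (1933) in VALI minus Control, from 0 to 3363 (0) and from 1226 to 3710 (3003) in VILI PBEF+/- minus PBEF+/-, and from 0 to 1711 (0) and from 0 to 1851 (13) in VILI PBEF+/- minus VALI. PBEF+/- minus Control and the interaction had 0 in both sets, and the alternatives reached 1892 and 1242 in the reduced set. The cause of these changes was not tested, and settings that leave arrays out also had fewer arrays.

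The replicate numbers did not pair the arrays. Deviations from the group means correlated between -0.35 and 0.32 for 19 pairs of arrays with the same number (median -0.04) and between -0.69 and 0.49 for 54 pairs with different numbers (median -0.02). With the replicate number as a block, the mean ventilation difference as labelled gave 2 of the 10 genes and VALI minus Control in the reduced set gave 2. The other counts of the 10 genes under the block stayed within 1.5 times those in the report.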
